A study of Mus musculus with 6 samples.

Results

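The genes encoding potassium channel subunits were followed in the cerebral cortex of senescence-accelerated mice fed a sugarcane top ethanolic extract (STEE). Members were all probe sets whose gene symbol begins with Kcn, one or more subfamily letters and a digit, leaving out Kcnj13 and the non-coding Kcnq1ot1. The rule used symbols and no measured value. It found 84 genes on 174 of the array's 45077 probe sets, out of 22527 gene symbol entries, and they fell into 20 lettered subfamilies, grouped here into 11 classes. All 84 symbols were current RefSeq symbols. Kcnb2 and Kcnk9, also on the list of genes to be named, had no entry under these symbols.

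RNA of 6 male mice, housed individually, was measured on Affymetrix arrays of the Mouse Genome 430 PM design, 2 mice to a group. The mice are given as 16 weeks old, which by the methods was their age on entering the study, so they were older when the cortex was taken, after acclimatization, dosing and testing. SAMP8 is the prone strain, which ages early and has learning and memory deficits, and SAMR1 is the resistant strain that ages normally and served as its control. The 3 groups were SAMR1 given water, SAMP8 given water (SAMP8 control), and SAMP8 given STEE by mouth at 20 mg/kg (STEE-fed SAMP8) for 30 days and through 8 further days of behavioral tests. By the paper, all animals also received BrdU, a label of dividing cells, in their drinking water during part of the dosing. SAMP8 and SAMR1 are separate strains, so the comparison between them joins every genetic difference with aging, and the extract was given to SAMP8 only.

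The tables hold 1 log2 signal for each probe set and group, an average over the arrays of the group made by the authors, and no value for a single mouse. Every level below is therefore the authors' mean, without an SD, and every difference is a difference between those means on the log2 scale, without a test. Differences below the spread between mice cannot be separated from it here, and no gene is said to have changed. As a descriptive threshold, a gene was counted as past 1.2-fold when its means differed by at least 0.263 on the log2 scale. The same count over all genes of the array is given with the family's counts, except under alternatives for which it was not made. The deposited means carry 2 decimals, so rounding alone can move a difference by 0.01. Where a gene had several probe sets, the brightest stands for it. Levels are not compared between genes, because probe sets differ in how strongly they hybridize.

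Potassium channels let potassium leave the cell and so pull the membrane back towards rest. Voltage-gated (Kv) subunits assemble as tetramers that open on depolarization, end the action potential and set how fast a neuron can fire, while tandem-pore (K2P) channels carry a leak current at rest and inward rectifiers (Kir) hold the resting potential or respond to G proteins, ATP or, in glia, potassium load. Calcium- and sodium-activated channels couple firing history to excitability, silent subunits open only when assembled with Kv2 subunits, and auxiliary subunits change the gating and surface delivery of the pores.

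On this array, 57 of the 84 genes (67.9%) lay at or above the median probe set signal of 4.15, against 57.7% of all genes. The remaining 27 lay below it, among them the cardiac and epithelial auxiliary subunits Kcne1, Kcne2 and Kcne3. The mean signal over the 3 groups ran from 2.33 for Kcne3 to 9.18 for Kcnd2. The cortical label was met by the projection neuron markers: Slc17a7 (7.05), Tbr1 (8.12), Neurod6 (8.00), Cux2 (8.00) and Fezf2 (5.93) had means in SAMR1 well above the array median.

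The sequences upstream of 5 genes are shown because their differences head the comparisons: Kcnt2, Kcnk1 and Kcnf1 had the highest positive differences between the strains, and Kcna5 and Kcnh2 were the only genes past 1.2-fold between the SAMP8 groups. Each is the 250 bases before the gene's start in RefSeq (GRCm38.p6), written 5′ to 3′ along the gene's strand, with capitals marking a match to the CCAAT box, the GC box (GGGCGG), the TATA box (TATAAA), the E-box (CACGTG) or the cyclic AMP response element (TGACGTCA), searched on both strands.
Kcnt2: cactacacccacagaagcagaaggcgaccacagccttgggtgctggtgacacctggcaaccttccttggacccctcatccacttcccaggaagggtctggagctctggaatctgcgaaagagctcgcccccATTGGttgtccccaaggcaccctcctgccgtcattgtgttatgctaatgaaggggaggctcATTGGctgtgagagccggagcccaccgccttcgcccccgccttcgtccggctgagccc
Kcnk1: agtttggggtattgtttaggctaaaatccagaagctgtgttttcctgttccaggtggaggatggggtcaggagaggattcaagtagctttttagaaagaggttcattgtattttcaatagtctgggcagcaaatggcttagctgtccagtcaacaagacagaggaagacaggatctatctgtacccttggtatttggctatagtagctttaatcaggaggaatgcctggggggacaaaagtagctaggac
Kcnf1: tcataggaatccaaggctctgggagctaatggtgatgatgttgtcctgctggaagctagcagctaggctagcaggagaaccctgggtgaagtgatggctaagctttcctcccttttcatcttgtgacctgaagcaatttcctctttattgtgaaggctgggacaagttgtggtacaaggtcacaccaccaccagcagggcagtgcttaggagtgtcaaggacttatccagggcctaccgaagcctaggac
Kcna5: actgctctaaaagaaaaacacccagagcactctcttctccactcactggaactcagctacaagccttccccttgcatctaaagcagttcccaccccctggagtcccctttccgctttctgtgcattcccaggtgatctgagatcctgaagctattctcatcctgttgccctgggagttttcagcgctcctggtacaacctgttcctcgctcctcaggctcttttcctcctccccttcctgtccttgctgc
Kcnh2: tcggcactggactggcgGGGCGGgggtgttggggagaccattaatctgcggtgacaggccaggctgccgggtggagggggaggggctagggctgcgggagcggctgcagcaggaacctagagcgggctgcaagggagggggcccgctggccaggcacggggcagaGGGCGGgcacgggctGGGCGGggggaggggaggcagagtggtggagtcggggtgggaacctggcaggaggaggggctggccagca
Kcnt2 lies on the plus strand (chr1:140245468-140245717), as does Kcnk1 (chr8:125994852-125995101). Kcnf1 (chr12:17176889-17177138), Kcna5 (chr6:126535556-126535805) and Kcnh2 (chr5:24329592-24329841) lie on the minus strand. The Kcnt2 window held CCAAT 2 times on the reverse strand, at positions -119 to -115 and -58 to -54 from the start, and the Kcnh2 window held GGGCGG 3 times, at -233 to -228, -85 to -80 and -70 to -65. No bases of these matches overlapped. None of the 5 motifs was in the Kcnk1, Kcnf1 or Kcna5 window. GC content was 73.6% for Kcnh2, 61.6% for Kcnt2, 53.2% for Kcna5, 51.2% for Kcnf1 and 44.4% for Kcnk1.

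Across the family, 86 windows of 61 member genes could be set beside 32851 windows of 27025 genes. The GC box was in 45.3% of member windows and 32.7% of all windows, the CCAAT box in 29.1% and 33.8%, the TATA box in 2.33% and 12.4%, and the E-box in 5.81% and 6.02%. The cyclic AMP response element was in none of the member windows and in 1.55% of all. The median GC content was 58.8% in member windows and 52.4% in all. These are counts of letters, several windows belong to the same gene, and none of them is a measured binding site.

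The first comparison asks how the SAMP8 cortex differs from the normally aging SAMR1 cortex without treatment. Some subunits of the resting leak, delayed rectifier, sodium-activated and A-type currents had higher means in SAMP8 control, led by Kcnt2 and Kcnk1. The A-type subunit was Kcnd2, and the calcium-activated Kcnn2 had a lower mean. Past 1.2-fold were 9 genes with the higher mean in SAMP8 control and 3 with the lower, 12 of 84 (14.3%). One of the 3 lower genes, Kcnv1, has probe sets in both directions. By the mean over all probe sets of each gene 9 were higher and 2 lower, but not all were the same genes. Kcnd2 (0.245) and Kcnh1 (0.24) were among those that fell below the fold. Kcnab1 (0.36), Kcns2 (0.32) and Kcnv1 (0.417) were past it upward instead. The share of all genes by the mean over probe sets was not counted. By the brightest probe set, 3.68% of all genes were past this fold upward, 3.19% downward and 6.86% in either direction. Members were brighter than the average gene, and dim probe sets differ less: among the 57 members at or above the median signal, 11 (19.3%) were past the fold, against 10.3% of all genes there. At the level of probe sets, 22 of 174 were higher (12.6%, against 3.68% of all probe sets) and 8 were lower (4.6%, against 3.43%). At 1.1-fold 32 members (38.1%) were past the threshold, against 24.8% of all genes, and at 1.5-fold 3 (3.57%), Kcnt2, Kcnk1 and Kcnf1, against 1.16%. The middle of the family lay near the middle of the array, with a median difference of 0.015 against 0 for all genes. There were 48 positive, 33 negative and 3 zero differences, 57.1% positive against 47.1% of all genes.

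**Figure D1:**
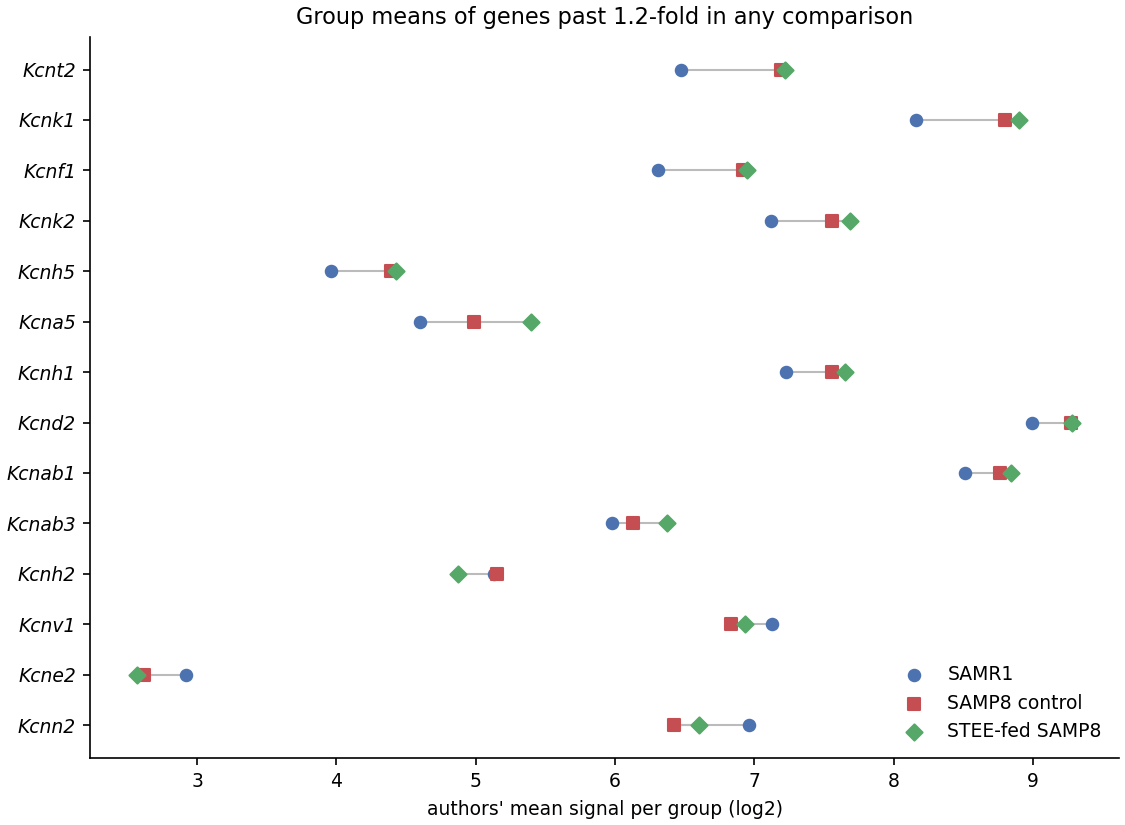
The authors' mean signal per group (horizontal axis, log2) of members past 1.2-fold in at least 1 comparison (rows), with circles for SAMR1, squares for SAMP8 control and diamonds for STEE-fed SAMP8, each from the brightest probe set and with no error available. Kcnt2 steps from 6.47 in SAMR1 to 7.19 and 7.22 in the SAMP8 groups, Kcna5 climbs at each step, and Kcnn2 is highest in SAMR1.

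Among the ion-activated channels, Kcnt2, a sodium-activated channel that carries a slow outward current after bursts, had the highest difference of the family. Its mean was 6.47 in SAMR1, 7.19 in SAMP8 control and 7.22 after STEE, a difference between the strains of 0.72. SAMR1 was the low group and the SAMP8 groups lay close together. The gene had 1 probe set. Its relative Kcnt1 had means of 6.90, 6.85 and 6.94, and its 3 probe sets gave strain differences of -0.05, -0.30 and -0.18.

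Kcnn2, an SK subunit whose calcium-activated current follows the action potential, was the lowest of the family in this comparison. Its means were 6.96 in SAMR1, 6.42 in SAMP8 control and 6.60 after STEE, so that it was 0.54 lower in SAMP8 control. SAMR1 was the highest group and STEE-fed SAMP8 lay between the others. It too had 1 probe set. The other SK genes, Kcnn1 and Kcnn3, and the intermediate-conductance Kcnn4 had strain differences of 0.01, -0.05 and 0.01.

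Kcnma1, the pore of the large-conductance BK channel, was 8.43, 8.45 and 8.52 at its brightest probe set. Its 5 probe sets did not give a common answer, with 2 dimmer ones at -0.27 and -0.26 and 2 at 0.09 between the strains. Kcnu1, a sperm channel, was below the median signal and differed by 0.01.

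In the K2P class of 12 genes, 2 were past the fold and both were higher in SAMP8 control. Kcnk1 (TWIK), a weakly conducting leak channel of neurons and astrocytes, had means of 8.16 in SAMR1, 8.80 in SAMP8 control and 8.90 after STEE, a strain difference of 0.64. Its other probe set, at 5.83, 6.73 and 6.88, differed by 0.90 in the same direction. Kcnk2 (TREK), a leak channel gated by membrane stretch, lipids and heat, had means of 7.12, 7.56 and 7.69, a difference of 0.44 at its only probe set. For both genes SAMR1 was the low group. The other 10 genes lay between -0.12 for Kcnk7 and 0.19 for Kcnk13, and the acid-sensitive Kcnk3 was level at 5.18 in both strains.

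Among the silent subunits, which modify Kv2 channels, Kcnf1 had means of 6.31 in SAMR1, 6.92 in SAMP8 control and 6.95 after STEE, a strain difference of 0.61. The second Kcnf1 probe set, at 4.47, 4.74 and 4.72, gave 0.27. Kcns2, another modifier, was 6.92, 7.17 and 7.18, short of the fold at 0.25, while its dimmer probe set gave 0.39.

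Kcnv1, a silent subunit enriched in the forebrain, had probe sets that went opposite ways. The brightest was 7.13 in SAMR1, 6.83 in SAMP8 control and 6.93 after STEE, a difference of -0.30. The other 2 probe sets were 6.15, 7.00 and 6.99, and 5.54, 6.24 and 6.44, higher in SAMP8 control by 0.85 and 0.70. No direction is given for Kcnv1. Which of its probe sets follows the transcript was not tested.

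**Figure D2:**
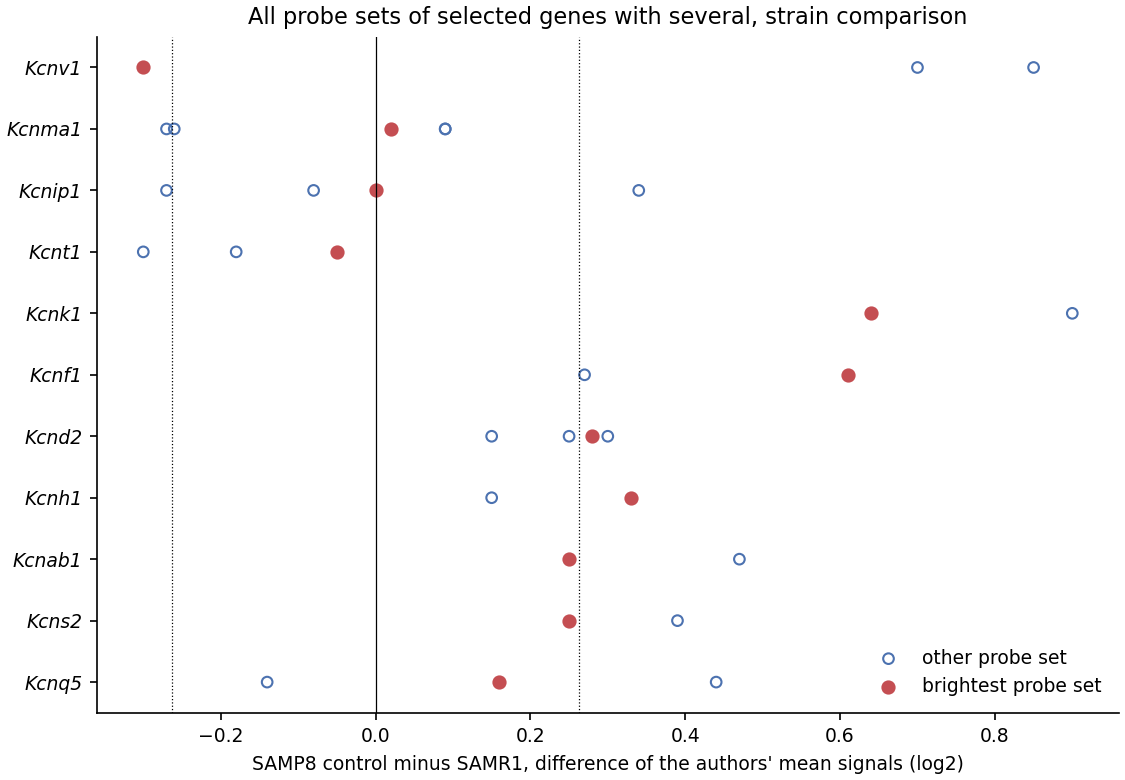
Difference between the authors' log2 means, SAMP8 control minus SAMR1 (horizontal axis, log2), for every probe set of selected members that have several (rows). The brightest is filled, the others are open and dotted lines mark 1.2-fold. Kcnc1, Kcnc4 and Kcnj3, whose probe sets the text also describes, are not drawn. Both Kcnk1 probe sets lie above 0, and the 3 Kcnv1 probe sets run from -0.30 to 0.85.

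Of the pore subunits of the Kv1 class, Kcna5 alone was past the fold. Kcna5, a delayed rectifier best known from heart, vessels and microglia, had means of 4.60 in SAMR1, 4.99 in SAMP8 control and 5.40 after STEE, a strain difference of 0.39 at its only probe set. The axonal subunits Kcna1 (8.92 and 8.99) and Kcna2 (8.25 and 8.29) differed by 0.07 and 0.04 between SAMR1 and SAMP8 control. In the Kv4 class, which carries the A-type current of dendrites, Kcnd2 was 8.99, 9.27 and 9.28, a strain difference of 0.28, with its 4 probe sets at 0.28, 0.25, 0.30 and 0.15. Kcnd3 and Kcnd1 lay at -0.05 and -0.07.

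The ether-a-go-go (EAG) class held 2 genes past the fold, both pores of the Eag branch. Kcnh1 was 7.23 in SAMR1, 7.56 in SAMP8 control and 7.65 after STEE, a difference of 0.33, and its second probe set gave 0.15. Kcnh5, with 1 probe set and a lower signal, was 3.96, 4.39 and 4.43, a difference of 0.43. The Elk-type Kcnh3 went the other way at -0.18 without passing the fold, and the Erg-type Kcnh2 and Kcnh7 were near level, at 5.13 and 5.15 and at 3.65 and 3.62.

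The Kv3 class, which lets parvalbumin interneurons fire fast, had no gene past the fold. From SAMR1 to SAMP8 control, Kcnc1 (8.40 to 8.16) and Kcnc4 (6.61 to 6.41) had differences of -0.24 and -0.20 at their brightest probe sets, and Kcnc2 was at 0.03. The second Kcnc1 probe set, nearly as bright (8.10 to 8.09), gave -0.01 and the other -0.10, and the second Kcnc4 probe set gave -0.08. Pvalb, the marker of these interneurons, was 8.21 and 8.12. The Kv7 class, which carries the muscarine-sensitive M-current, also had no gene past the fold at its brightest probe set. Kcnq3, an M-current pore, was 4.40 in SAMR1, 4.36 in SAMP8 control and 4.39 after STEE. Kcnq5 was 7.33 and 7.49 at its brightest probe set, with its 3 probe sets at 0.16, 0.44 and -0.14.

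None of the 14 inward rectifier genes was past 1.2-fold at its brightest probe set in any of the 3 comparisons, where 6.86%, 2.02% and 7.38% of all genes were. With 14 genes, such shares amount to about 1 gene at most. Between the strains they ran from -0.17 to 0.21. The low end was Kcnj10, the Kir channel with which astrocytes clear potassium, at 8.18 in SAMR1 and 8.01 in SAMP8 control, and the high end was Kcnj8, a vascular ATP-sensitive pore below the median signal, at 3.41 and 3.62. The G protein-gated pores Kcnj3 (7.53 and 7.54), Kcnj6 (4.86 and 5.04) and Kcnj9 (8.03 and 8.05) differed by 0.01, 0.18 and 0.02. Dimmer Kcnj3 probe sets were past the fold, 1 of them by 0.28 between the strains (4.43 to 4.71) and 2 of them, by 0.33 and 0.29, between STEE-fed SAMP8 and SAMR1. Kcnj4, a strong inward rectifier of forebrain neurons, was 6.22 in SAMR1, 6.27 in SAMP8 control and 6.30 after STEE, and Kcnj11, the pore of neuronal ATP-sensitive channels, was 5.43, 5.46 and 5.31 in the same order.

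Of the 15 auxiliary subunits, only Kcne2 was past the fold, at 2.92 in SAMR1, 2.62 in SAMP8 control and 2.57 after STEE, a difference of -0.30 at a signal below the array median. Kcne2 is abundant in choroid plexus. Of that tissue's 6 markers, 2 were past the fold and lower in SAMP8 control, Ttr (10.20 to 8.24) and Otx2 (2.87 to 2.55), and the part of the choroid plexus in the Kcne2 difference was not tested. Kcnab1, a cytoplasmic beta subunit that speeds inactivation of Kv1 channels, was 8.51 and 8.76, short of the fold at 0.25, with its second probe set at 0.47. The Kv4 partners Kcnip1 to Kcnip4 lay between -0.10 and 0.13, although dimmer Kcnip1 probe sets gave 0.34 and -0.27. By gene and in the order SAMR1, SAMP8 control, STEE-fed SAMP8, Kcnip1 was 6.26, 6.26 and 6.30, Kcnip2 was 8.43, 8.54 and 8.56, Kcnip3 was 5.93, 6.06 and 6.14, and Kcnip4 was 7.99, 7.89 and 7.96. Kcnmb4, the main neuronal beta subunit of BK channels, was 7.67 and 7.85 in SAMR1 and SAMP8 control. The beta subunit Kcnab2, common on axons, was 8.15, 8.09 and 8.16 in the 3 groups.

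Probe sets of the same gene disagreed often enough to bound these readings. In 23 of the 46 genes that had more than 1 probe set, all strain differences were of the same sign. The SD between probe sets of a gene had a median of 0.0994. In 2 genes, Kcnv1 and Kcnip1, probe sets were past the fold in both directions, and in 10 a dimmer probe set was past it while the brightest was not. Of the 12 genes past the fold, 6 had several probe sets, and 4 of these had a single sign over all of them: Kcnk1, Kcnf1, Kcnd2 and Kcnh1.

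The tissue itself also differed between the strains in its regional markers, and these values stand beside every strain difference above. All 6 striatal markers had the higher mean in SAMP8 control, by 0.32 to 0.89, and the average of the list was 7.15 in SAMR1, 7.76 in SAMP8 control and 7.83 after STEE. Drd1, the dopamine receptor of the direct pathway (listed as Drd1a), was 7.47 in SAMR1 and 8.36 in SAMP8 control, and Ppp1r1b, which encodes DARPP-32, was 7.13 and 8.00. Of the 6 thalamic markers 3 were past the fold and lower, Tcf7l2 (5.69 to 4.72), Prkcd (6.31 to 5.53) and Slc17a6 (7.42 to 6.69). The list averages of the thalamic markers were 6.29, 5.81 and 5.70 in SAMR1, SAMP8 control and STEE-fed SAMP8.

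Of the 6 oligodendrocyte markers 4 were past the fold and lower, with a list median of -0.33 and list averages of 9.79, 9.48 and 9.47. All 6 hippocampal and dentate markers were lower, 3 of them past the fold, with averages of 4.56, 4.29 and 4.27. The choroid plexus list averaged 4.74, 4.30 and 4.47. Its median difference was -0.155 between the strains and 0.01 between the SAMP8 groups, where Ttr was 8.24 without and 9.33 with STEE. The interneuron list had 1 gene past the fold, Vip (7.84 to 8.71), with averages of 8.12, 8.37 and 8.37. The endothelial and mural list had 2 past the fold and lower, Cldn5 (6.13 to 5.85) and Pdgfrb (6.45 to 6.13), with averages of 6.40, 6.29 and 6.34. Astrocyte and microglial markers had none past the fold and averaged 9.55, 9.44 and 9.46, and 7.31, 7.22 and 7.21. The projection neuron list had 1 gene past the fold in each direction, Cux2 being the lower one (8.00 to 7.73), and averaged 7.30 in both strains. In bulk tissue, fewer cells of a type and less RNA per cell cannot be told apart, and the part of striatal or thalamic tissue in the differences of the channel genes was not tested.

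**Figure D3:**
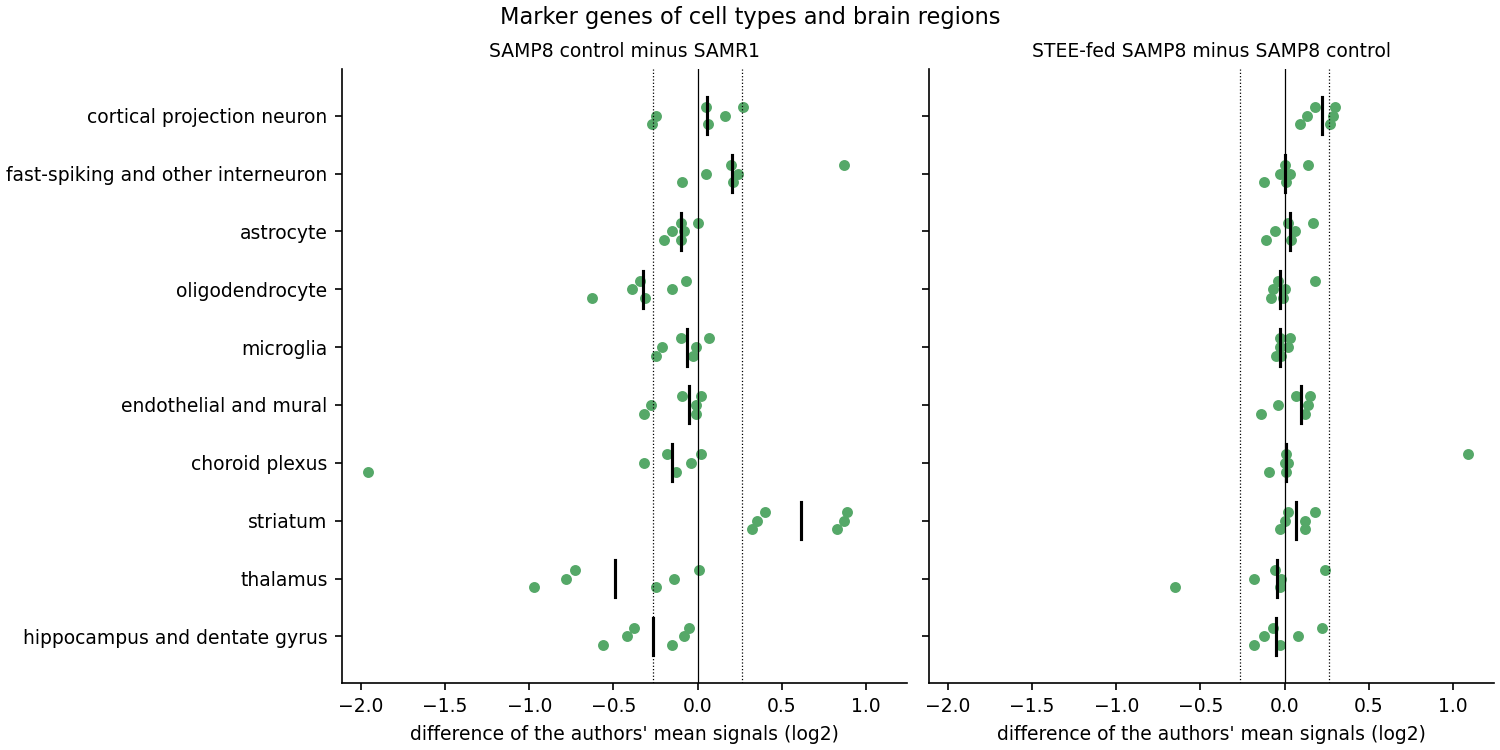
Difference between the authors' log2 means (log2) for each marker gene of 10 cell type or region lists, in SAMP8 control minus SAMR1 and in STEE-fed SAMP8 minus SAMP8 control, each point being 1 gene, each bar the median of its list and the dotted lines 1.2-fold. In the strain comparison all 6 striatal markers lie at 0.32 or above and Ttr of the choroid plexus list lies at -1.96, and in the extract comparison all 6 projection neuron markers lie above 0.

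The second comparison asks how channel transcripts differed with STEE within SAMP8. Differences were small, and the genes past the fold were Kcna5, a Kv1 pore with the higher mean in STEE-fed SAMP8, and Kcnh2, an Erg pore with the lower. Past 1.2-fold were 1 gene with the higher mean in STEE-fed SAMP8 and 1 with the lower, 2 of 84 (2.38%). Over all genes the shares were 1.1% upward, 0.923% downward and 2.02% in either direction, so the family's share was near the background. Among members at or above the median signal it was 2 of 57 (3.51%), against 2.71% of all genes there. By probe set, 2 of 174 were higher (1.15%, against 1.03%) and 2 lower (1.15%, against 0.976%). At 1.1-fold 15 members (17.9%) were past it, against 15.2%, and at 1.5-fold none, against 0.164%.

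Kcna5 stood at 4.99 without and 5.40 with STEE in SAMP8, a difference of 0.41, and SAMR1 lay below both at 4.60. The extract group was thus farther from SAMR1 than the untreated SAMP8 group was. Kcnh2, the Erg pore that repolarizes the heart and damps repetitive firing in neurons, stood at 5.15 without and 4.87 with STEE in SAMP8, a difference of -0.28, with SAMR1 at 5.13. Here the water groups lay together and the extract group was the low one. Both genes had 1 probe set, so no other probe set bears on either. At dimmer probe sets, Kcnd3 gave -0.35 (4.61 to 4.26) and Kcnma1 gave 0.45 (5.73 to 6.18), whereas the brightest ones gave 0.13 and 0.07.

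The voltage-gated pores and silent subunits were mostly on the positive side, all below the fold except Kcna5 and Kcnh2. Of these 35 genes, both included, 28 had the higher mean in STEE-fed SAMP8, 6 the lower and 1 was equal. Their median was 0.05. Over all genes of the array, 48.4% were positive and 46.9% negative. Among the 27 of the 35 at or above the median signal, 22 were positive and 4 negative, against 54.5% positive of all genes there. Joining these classes was not among the groupings fixed beforehand. All 4 Kv3 genes (0.05 to 0.19), all 3 Kv4 genes (0.01 to 0.13) and all 5 Kv7 genes (0.03 to 0.12) were positive at their brightest probe sets. By the mean over probe sets, 24 of the 35 genes were positive and 10 negative, the latter including 2 of the Kv4 genes (Kcnd1 at -0.02 and Kcnd2 at -0.09) and 1 of the Kv7 genes. In the Kv1 class the axonal subunits Kcna1 (8.99 to 9.13), Kcna2 (8.29 to 8.47) and Kcna4 (6.03 to 6.19) differed by 0.14, 0.18 and 0.16, while Kcna7 and Kcna3 were at -0.13 and -0.11. Kcnc4 was 6.61 in SAMR1, 6.41 in SAMP8 control and 6.60 after STEE. These differences are small, and their direction differed with signal: 41 of the 57 brighter members (71.9%) were positive, against 54.5% of all genes at that signal, and 10 of the 27 dimmer members (37.0%), against 40.1%.

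Other classes were mixed. Of the K2P genes, 8 of 12 had the lower mean in STEE-fed SAMP8, from -0.16 for Kcnk5, and Kcnk2 was the highest at 0.13. All 5 Kcne genes were negative, between -0.18 for Kcne1l and -0.04, and 4 of them lay below the median signal. The 3 Kcnab genes were positive, led by Kcnab3, which was 5.98 in SAMR1, 6.13 in SAMP8 control and 6.37 after STEE. Among the inward rectifiers the range was -0.18 for Kcnj6 to 0.14 for Kcnj3, and among the ion-activated channels -0.12 for Kcnn3 to 0.18 for Kcnn2. Over the whole family the median was 0.03 against 0 for all genes, with 51 positive, 31 negative and 2 zero. The positive share was 60.7%, against 48.4% of all genes.

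Markers of cortical projection neurons were all higher in STEE-fed SAMP8, by 0.09 to 0.30, and 3 of the 6 were past the fold: Tbr1 (8.28 to 8.57), Cux2 (7.73 to 8.03) and Fezf2 (5.99 to 6.26). Their list average was 7.30 without and 7.51 with STEE. The only other markers past the fold were Ttr, higher by 1.09, and the thalamic Zic1, at 7.68 and 7.03. The part of projection neuron content in the positive differences of the Kv genes was not tested.

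**Figure D4:**
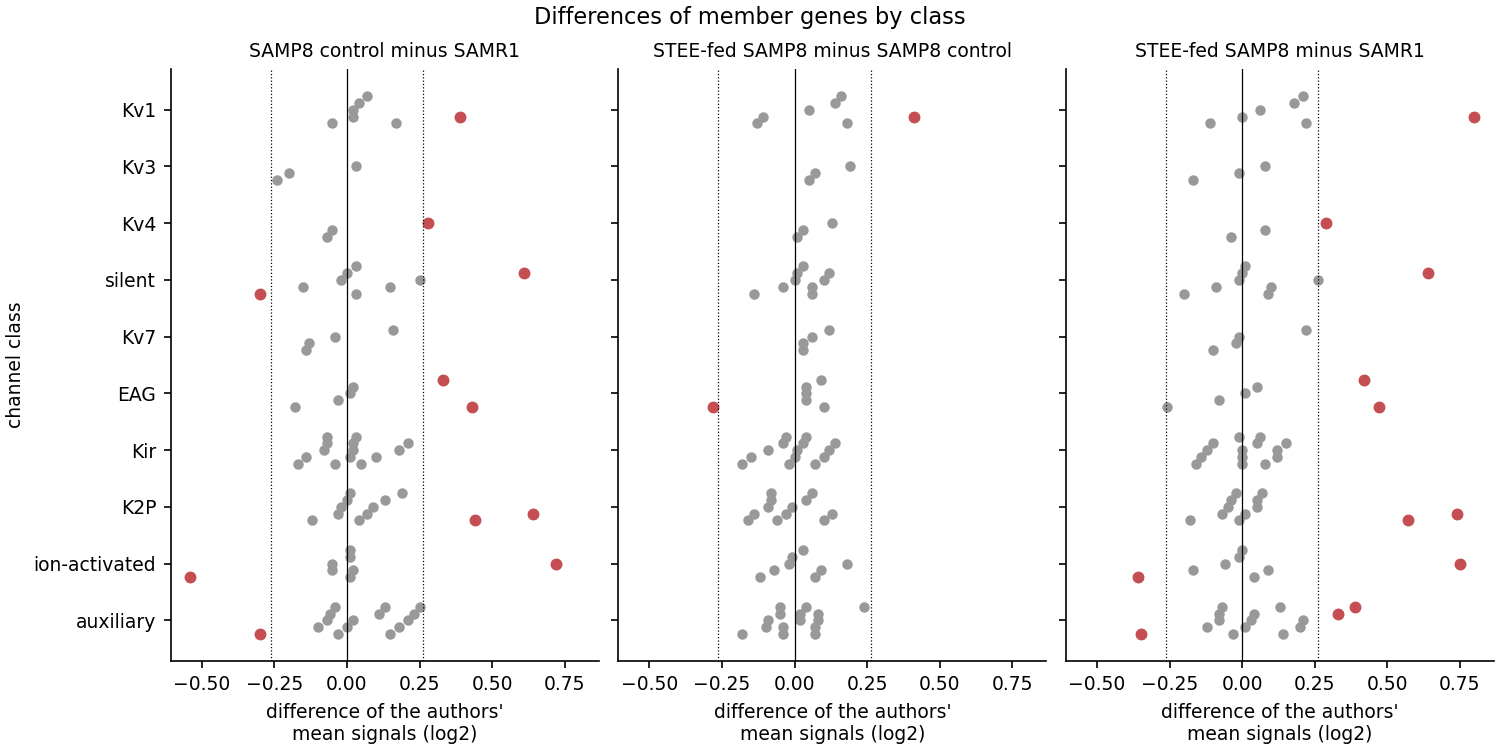
Difference between the authors' log2 means (horizontal axis, log2) for the member genes shown, by class (rows) in the 3 comparisons, each point being the brightest probe set of 1 gene, red where past 1.2-fold (dotted lines). Kcnt2, Kcnk1 and Kcnf1 lie highest in SAMP8 control minus SAMR1, the 14 Kir genes stay within the lines, and only Kcna5 and Kcnh2 lie outside them in STEE-fed SAMP8 minus SAMP8 control.

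The third comparison sets the extract group against SAMR1. It joins strain and extract, and it shares arrays with each of the comparisons above, so it adds no independent evidence to them. Past 1.2-fold were 10 genes with the higher mean in STEE-fed SAMP8 and 2 with the lower, 12 of 84 (14.3%), against 4.44% upward, 2.93% downward and 7.38% in either direction over all genes. At or above the median signal it was 11 of 57 (19.3%), against 11.1%. By probe set, 23 of 174 were higher (13.2%, against 4.6%) and 4 were lower (2.30%, against 3.25%). At 1.1-fold there were 29 (34.5%), against 26.6%, and at 1.5-fold 4 (4.76%), against 1.18%. The median difference was 0.01 against -0.01 for all genes.

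Kcna5 led with 0.80, followed by Kcnt2 at 0.75, Kcnk1 at 0.74, Kcnf1 at 0.64 and Kcnk2 at 0.57. Kcnh5 (0.47), Kcnh1 (0.42) and Kcnd2 (0.29) followed, but by the mean over their probe sets Kcnh1 was at 0.21 and Kcnd2 at 0.155, both below the fold. The beta subunits Kcnab3 and Kcnab1, which assemble with Kv1 pores, were past the fold in this comparison at 0.39 and 0.33, from means in SAMR1 of 5.98 and 8.51 to means in STEE-fed SAMP8 of 6.37 and 8.84. Kcnn2 (-0.36) and Kcne2 (-0.35) were the lower genes. Kcns2 at 0.26 and Kcnh2 at -0.26 lay within rounding of the threshold.

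Genes that bind, traffic or cluster these channels, and the related hyperpolarization-activated Hcn genes, were taken as a second list. Of 20 on it, 17 had an entry, and Lrrc55, Hcn4 and Kcnrg had none under these symbols. Between the strains only Hcn2, a pacemaker-current pore, was past the fold, at 6.42 in SAMR1, 6.14 in SAMP8 control and 6.24 after STEE, a difference of -0.28. None was past it between the SAMP8 groups. Between STEE-fed SAMP8 and SAMR1, Abcc9, the sulfonylurea receptor of vascular ATP-sensitive channels, was at 0.29 (3.63 and 3.92), and Cntn2, which clusters Kv1 channels beside the nodes of myelinated axons, at -0.29 (7.09 and 6.80). The Kv4 partners Dpp6 (7.37, 7.25 and 7.27) and Dpp10 (8.51, 8.69 and 8.62) and the Kv2 partner Amigo1 (5.28, 5.25 and 5.35) were below the fold throughout.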

How the data were processed

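Cortical RNA of 6 mice was labelled with a 3′ IVT PLUS kit and hybridized to Mouse Genome 430 PM array strips. The authors normalized the arrays by RMA in Expression Console and deposited, from Transcriptome Analysis Console version 4, a log2 group mean (bi-weight average) for each probe set in 2 tables. The tables also hold the authors' linear fold changes, ANOVA p-values and false discovery rates, which were not used. SAMP8 control values were identical in both tables (0 differed), so the 3 groups share a scale. RMA pulls dim signals together and so understates their differences.

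Differences of means were computed with Python 3.11.15 and pandas 2.3.3, and the counting was tested on simulated data. The tables hold group means only and values per mouse were not analysed here, so no test, SD or interval is given. The 2 arrays in a group limit the precision. Genes named are those past 1.2-fold in any comparison, those at the ends of each class's range, those with probe sets past the fold in both directions and a list of 40 cortical subunits. Kcna3, Kcne1, Kcne3, Kcnk3, Kcnn4 and Kcnu1 were named after their values were seen. Members and all lists were chosen with earlier results of these data known. Alternatives were the mean over probe sets, leaving out probe sets that may cross-hybridize or genes below the median signal, centring, and folds of 1.1 and 1.5. Values of some genes are not reported here.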

Additional observations from a re-analysis of the deposited data

How the results depend on the processing

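Counts past the fold moved with its size. At 1.1-fold, 32 of 84 members were past it between SAMP8 control and SAMR1, 15 between the SAMP8 groups and 29 between STEE-fed SAMP8 and SAMR1. At 1.5-fold they were 3, 0 and 4. At 1.2-fold, leaving out genes below the median signal left 57 members, of which 11, 2 and 11 were past it. These were 19.3%, 3.51% and 19.3%, against 10.3%, 2.71% and 11.1% of all genes at that signal. The other alternatives, over all 84 members, gave 11 to 12, 2, and 13 to 14, and the share of all genes was not counted for them. The mean over all probe sets turned Kcnv1 to 0.417 between the strains and 0.513 between STEE-fed SAMP8 and SAMR1. It also took Kcnd2 (0.245) and Kcnh1 (0.24) below the fold between the strains, and Kcnd2 (0.155) and Kcnh1 (0.21) between STEE-fed SAMP8 and SAMR1. Of 519 values of 44 named genes under alternatives, 505 stayed on the same side of the fold, 5 no longer passed it, 7 newly passed it and the 2 of Kcnv1 turned. Of the 505, 18 changed sign below the fold, 16 of them by the mean over probe sets. No paired analysis was possible because each group was of different mice, and only group means were analysed here. Values per mouse were not analysed here, so no mouse was left out. Probe sets near background limit the dim genes.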
